A study of Mus musculus with 20 samples.

Results

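The transcripts described here are those of 9 plasma protein genes that the liver is best known for: Alb, Afp, Apoa1, Apoa2, Ttr, Ahsg, Fgb, Serpina1a and Trf. They were measured in whole fetal mouse hearts on Affymetrix MG-U74Av2 arrays. The platform annotation gave 12 of the 12422 probe sets to these symbols, and they stand for 8 of the 9 genes. Alb, Apoa1, Ttr, Ahsg and Fgb each had 1 probe set, Afp and Apoa2 each had 2, and Trf (transferrin) had none and was not analysed here. The other 3 probe sets carry Serpina1a together with its near-identical neighbours, so they are called Serpina1 family probe sets and cannot be assigned to 1 gene. A probe set entered the fits across all genes if its signal reached the array's 40th percentile, 102 to 127 depending on the array, in 4 or more of the 20 arrays. This kept 7 of the 12 (Alb, Apoa1, Ahsg, 1 of Afp and all 3 of Serpina1), which stand for 5 of the 9 genes, and 8097 of all 12422. The annotation names 8949 genes in the whole series, 6637 of them with a kept probe set.

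The series holds 20 arrays of total RNA. The 8 controls came from fetuses whose dams had received the corn oil vehicle, and 4 arrays stood at each of 1.5, 3 and 6 µg/kg (the low, middle and high dose) of TCDD, a dioxin that activates the aryl hydrocarbon receptor. Treatment was given by gavage on gestation day 14.5, and hearts were taken on gestation day 17.5. The treatment day was left out for array 1 of the low dose, whose label does not give it as a plain number. The labels number the controls 1 to 8 and give no reason for the numbering, so controls 1 to 4 and controls 5 to 8 are treated below as sets of 4 named by number only. Strain, litter, pooling and the sex of the fetuses are not given in the sources used here, so a p-value measures only the spread between these arrays, which may be technical, and their number limits the precision.

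Albumin, encoded by Alb, is the main carrier protein of adult plasma, and alpha-fetoprotein, encoded by Afp, is its fetal relative. Hepatocytes secrete both, along with apolipoproteins, protease inhibitors and clotting factors, and many of these genes are driven in liver by shared factors such as HNF1, HNF4, FOXA and C/EBP proteins. The fetal liver lies below the diaphragm, close to the heart, and is a blood-forming organ at this stage. In a bulk sample of whole heart, fewer cells of a type and less RNA per cell cannot be told apart.

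The labelled tissue was checked against its markers. All 6 cardiomyocyte markers (Myh6, Tnnt2, Actc1, Nppa, Myl7 and Tnni3) were kept, with signals of 4643 to 22725 in single arrays. Of 12 hepatocyte markers 5 were kept (Alb, Afp, Ahsg, Fga and Cps1). None of the 12 was listed at 0 in any array. The signal of Hnf4a, a transcription factor that defines hepatocytes, reached at most 33.8, and that of Serpinc1 (antithrombin) at most 60.3. Both were under the filter in every array. The highest signals of the others not kept were 93.2 for Ambp, 103 for Fgb, 105 for Hpx, and 132 for Apoa2 and for Fgg. Array medians lay between 171 and 210.4, and arrays correlated with each other at 0.941 to 0.981 across probe sets.

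The upstream sequences of 6 members are shown so that Afp can be set beside the 5 whose signals vary together below. Those 5 are Alb, Ahsg, Apoa1, Fgb and Serpina1a. Afp lies next to Alb, but its signals did not follow theirs. The signals of Afp, Apoa1 and Fgb were dim. Each sequence is the 250 bases before the gene's start in the RefSeq table of mouse assembly GRCm38.p6, read 5′ to 3′ on the gene's strand. Capitals mark matches on either strand to GTTAAT (reverse complement ATTAAC), which is an arm of the palindrome bound by HNF1, or to TATAAA.
Alb (chr5:90460620-90460869, plus strand): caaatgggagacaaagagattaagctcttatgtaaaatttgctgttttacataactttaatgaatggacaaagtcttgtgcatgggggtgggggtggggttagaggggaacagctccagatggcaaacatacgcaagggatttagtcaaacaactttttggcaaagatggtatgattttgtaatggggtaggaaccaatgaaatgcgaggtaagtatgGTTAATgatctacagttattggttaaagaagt
Afp (chr5:90490464-90490713, plus strand): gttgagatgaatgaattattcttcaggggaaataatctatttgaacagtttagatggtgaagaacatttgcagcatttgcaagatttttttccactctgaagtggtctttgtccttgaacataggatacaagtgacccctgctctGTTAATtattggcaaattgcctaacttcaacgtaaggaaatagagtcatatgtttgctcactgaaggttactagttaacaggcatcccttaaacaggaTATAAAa
Fgb (chr3:83049864-83050113, minus strand): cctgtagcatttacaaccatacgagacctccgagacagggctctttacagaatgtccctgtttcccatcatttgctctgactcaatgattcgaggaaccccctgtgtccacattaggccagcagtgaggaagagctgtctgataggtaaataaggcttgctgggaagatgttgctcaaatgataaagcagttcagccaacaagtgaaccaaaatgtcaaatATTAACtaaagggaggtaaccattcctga
Serpina1a (chr12:103863620-103863869, minus strand): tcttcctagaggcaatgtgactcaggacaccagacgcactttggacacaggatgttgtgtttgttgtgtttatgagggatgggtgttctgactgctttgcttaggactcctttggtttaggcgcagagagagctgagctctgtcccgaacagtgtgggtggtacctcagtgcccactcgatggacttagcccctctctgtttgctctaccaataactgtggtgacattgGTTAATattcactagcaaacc
Ahsg (chr16:22891765-22892014, plus strand): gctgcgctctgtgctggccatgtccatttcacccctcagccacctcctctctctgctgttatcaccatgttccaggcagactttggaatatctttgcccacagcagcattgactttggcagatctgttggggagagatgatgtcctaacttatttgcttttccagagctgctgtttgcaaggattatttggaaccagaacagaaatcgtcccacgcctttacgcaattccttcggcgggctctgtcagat
Apoa1 (chr9:46228380-46228629, plus strand): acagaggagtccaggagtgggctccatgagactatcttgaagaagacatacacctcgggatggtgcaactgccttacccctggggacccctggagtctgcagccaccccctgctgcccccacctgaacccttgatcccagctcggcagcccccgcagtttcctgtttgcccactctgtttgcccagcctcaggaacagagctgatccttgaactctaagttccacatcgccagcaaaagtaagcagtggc
Of 7 member genes searched, 4 held GTTAAT in this window (Alb, Afp, Fgb and Serpina1a), and Ahsg, Apoa1 and Apoa2 did not, against 6.43% of 32851 promoters in the table. All 5 of Serpina1a to Serpina1e held it, but these genes are near-identical, so they are not 5 separate matches. Of the 3 fibrinogen genes, Fgb and Fga held it and Fgg did not. The table holds 2 starts for Apoa2, so 8 windows were searched for the 7 genes. The FOXA motif TGTTTAC was found in 1 of the 8, against 3.17% of promoters, and TATAAA in 2, against 12.4%. Afp held TATAAA, and both motifs lay in the Apoa2 window at chr1:171224804-171225053, which is inside the gene body, while the Apoa2 window before the gene's outer start held neither. The HNF4 motif CAAAGTCCA was found in none of the 8 windows, against 0.384%. None of these 4 motifs overlapped another in the printed windows. A match describes letters in this window and is not evidence of a bound site.

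Alb covers chr5:90460870-90476602 and Afp starts 14.1 kb beyond its end, at chr5:90490714-90508907. The 5 Serpina1 genes lie within 228.7 kb on chromosome 12, and Fgb lies with its partners Fga and Fgg within 42.1 kb on chromosome 3. Ahsg is at chr16:22892015-22899451, Apoa1 at chr9:46228630-46230469 and Apoa2 at chr1:171221564-171226379. These are gene bodies in GRCm38.p6, and the positions of the probes themselves were not used.

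Albumin mRNA gave signal above the filter in all 20 arrays and spanned an 18.2-fold range among them. In controls 1 to 4 the Alb signals were 368, 519, 141 and 118. In controls 5 to 8 they were 762, 376, 476 and 984. Within the controls alone the lowest and the highest array lay farther apart than any pair of the set means given next. At 1.5 µg/kg of TCDD the arrays gave 465.5, 579, 2147 and 770.2, so that array 3 stood far above the other three. At 3 µg/kg they gave 554, 856, 648 and 762. At 6 µg/kg they gave 743, 952, 970.5 and 290.3, and array 4 was the low one. Over 4 arrays each, the mean ± SD was 286 ± 192 in controls 1 to 4 and 650 ± 276 in controls 5 to 8. It was 990 ± 781 for the low dose, 705 ± 132 for the middle dose and 739 ± 316 for the high dose.

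**Figure D1:**
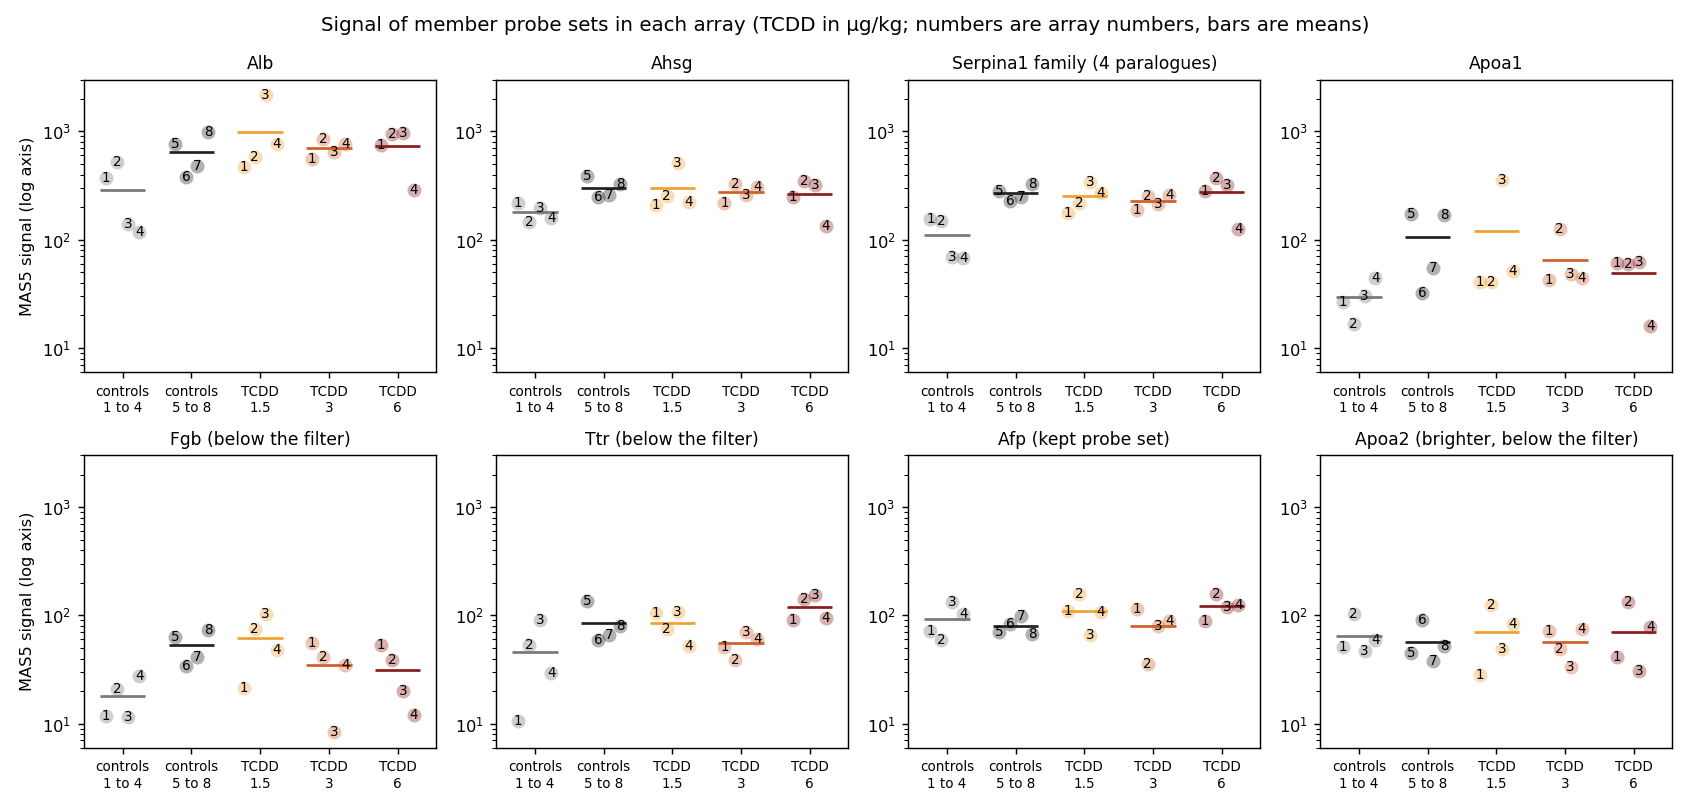
Signal of 1 probe set for each of the 8 member genes in every array, on a log axis, with the array number inside each point and the set mean as a bar. Alb, Ahsg and the Serpina1 family were low in controls 1 to 4, array 3 at 1.5 µg/kg was the highest for Alb, Ahsg, Apoa1 and Fgb, and Afp and Apoa2 showed no such pattern.

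Ahsg, which encodes fetuin-A, a fetal plasma glycoprotein that inhibits calcification, was likewise above the filter in all 20 arrays. Controls 1 to 4 gave 220.5, 147, 194 and 158, and controls 5 to 8 gave 384, 248, 256 and 325, so the sets did not overlap. The arrays of the low dose gave 210.1, 253, 516 and 222. Those of the middle dose gave 220.1, 325, 256 and 304, and those of the high dose 246, 347, 323 and 134. Array 3 at 1.5 µg/kg was again the highest of all and array 4 at 6 µg/kg the lowest.

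Serpina1a encodes alpha-1-antitrypsin, the plasma inhibitor of neutrophil elastase, which in mice is made from a cluster of paralogues. The brightest of its probe sets is annotated to 4 paralogues, Serpina1a, b, c and d, and is called the 4-paralogue probe set. It gave 154, 149.9, 69.1 and 67.7 in controls 1 to 4 and 279.9, 226, 247 and 327 in controls 5 to 8, again without overlap. With TCDD it gave 175, 216, 342 and 269.7 for the low dose, 190.0, 255, 215 and 257 for the middle dose and 281, 371, 322 and 127 for the high dose. The 3-paralogue probe set, annotated to Serpina1a, c and d, was above the filter in 11 arrays and ran from 47.2 in control 4 to 304 in array 3 at 1.5 µg/kg. The 5-paralogue probe set, annotated to Serpina1a to Serpina1e, was above the filter in 15 arrays and ran from 44.6 in control 7 to 175 in array 2 at 1.5 µg/kg. Its signals at 1.5 µg/kg (134, 175, 156 and 136) all lay above the highest control at 126.

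Apoa1 encodes the main protein of high-density lipoprotein. It passed the filter with just 4 arrays, so its low values carry little information. Those 4 were controls 5 and 8 at 172 and 167, array 3 at 1.5 µg/kg at 354 and array 2 at 3 µg/kg at 125. The other 16 arrays gave 15.9 to 62.2. Controls 1 to 4 gave 26.5, 16.7, 29.98 and 44.4.

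Afp differed from these genes in its pattern. Its kept probe set was above the filter in 6 arrays and ranged 4.49-fold, from 35.5 in array 2 at 3 µg/kg to 159 in array 2 at 1.5 µg/kg. Controls 1 to 4 gave 72.1, 58.7, 134 and 103 and controls 5 to 8 gave 70.3, 83.5, 99.2 and 67.6, so the sets overlapped. The other Afp probe set stayed under the filter in every array, at 12.2 to 97.04. The 2 Afp probe sets correlated with each other at only r = 0.214 over 20 arrays.

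The remaining members lay near the background of the arrays. Fgb, the fibrinogen beta chain, was under the filter in every array, at 8.39 to 103. Its signals were 11.7, 20.9, 11.6 and 27.5 in controls 1 to 4 and 63.2, 33.8, 41.6 and 73.1 in controls 5 to 8, without overlap. Ttr, transthyretin, the carrier of thyroid hormone and retinol-binding protein, passed the filter's signal in 3 arrays and ranged from 10.7 to 154. Apoa2, the second protein of high-density lipoprotein, passed it in 2 arrays by the brighter of its probe sets (28.4 to 132) and in 1 array by the other (9.69 to 129). The 2 Apoa2 probe sets did not move together (r = -0.017).

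No member passed the test at any dose against the 8 controls. All fits used limma on log2(signal + 32), which understates the change of dim probe sets, with Benjamini-Hochberg adjustment over the 8097 kept probe sets and a threshold of 0.05. Of the 7 members 0 were called at each dose, while 0.21%, 0.0247% and 0.0741% of all kept probe sets were, from the low dose to the high. All 7 members had higher fitted means at 1.5 µg/kg, with log2 differences of 0.25 to 1.03 and a median of 0.45, against a median of 0.01 over all kept probe sets. At 3 µg/kg 6 of 7 were higher, with a median of 0.36, and at 6 µg/kg 6 of 7, with a median of 0.39, against 0.00 over all kept probe sets in both. Of all kept probe sets 51.9%, 51.2% and 49.7% were higher from the low dose to the high. The 7 members are probe sets of 5 genes, several of which vary together, so they are not 7 separate results. The median at 3 µg/kg was 0.22 without control 3 or without control 4. At an unadjusted p under 0.05 stood 2, 0 and 1 members from the low dose to the high, while 12.6%, 5.72% and 9.15% of all kept probe sets did.

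For Alb the log2 difference from the 8 controls was 1.03 ± 0.44 for the low dose (SE, limma adjusted p = 0.336), 0.80 ± 0.44 for the middle dose (adjusted p = 0.887) and 0.75 ± 0.44 for the high dose (adjusted p = 0.603). Without array 3 the value at 1.5 µg/kg was 0.58. The smallest adjusted p of a member was that of the 5-paralogue Serpina1 probe set at 1.5 µg/kg, where the log2 difference was 0.58 ± 0.20 (adjusted p = 0.221). It was the single member whose 4 arrays at that dose all lay above all 8 controls, a position held by 1.06% of kept probe sets. For Ahsg the 3 differences were 0.25, 0.21 and 0.09, and for Apoa1 0.40, 0.10 and -0.13, each smaller than its standard error or close to it. Without array 3 at 1.5 µg/kg both genes had a difference below 0 at that dose, -0.02 for Ahsg and -0.18 for Apoa1.

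The doses did not separate among themselves either. In the F test over the 3 doses 0 of 7 members passed, with a lowest limma adjusted p of 0.584 (0.0371% of kept probe sets called). In the linear trend over dose in µg/kg 0 of 7 passed, with a lowest limma adjusted p of 0.667 (0.0618% called). A p that misses the threshold does not show that the doses act alike. With 4 arrays a dose, the standard error of an Alb difference was 0.44 on the log2 scale.

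Between the sets of controls the median member difference was larger in size than at any dose against the 8 controls. Of the 7 kept members 6 were lower in controls 1 to 4 than in controls 5 to 8, with a median log2 difference of -0.66. Over all kept probe sets 49.7% were lower and the median was 0.00. The 4-paralogue Serpina1 probe set fell by 1.14 ± 0.26 (SE, limma adjusted p = 0.0299) and was the single member called. Of all kept probe sets 1.57% were called in this comparison and 0.729% were called as lower. Alb differed by -1.22 ± 0.45 (adjusted p = 0.19), Apoa1 by -1.02 ± 0.47 (adjusted p = 0.309), Ahsg by -0.66 ± 0.25 (adjusted p = 0.208) and the 3-paralogue Serpina1 probe set by -0.63 ± 0.32 (adjusted p = 0.367). The 5-paralogue probe set differed by -0.14 ± 0.23 and Afp by 0.11 ± 0.26. Ahsg and the 4-paralogue probe set had no overlap between the sets, 2 of 7 members, where 3.73% of kept probe sets had all of controls 1 to 4 below all of controls 5 to 8.

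With single arrays left out the log2 difference of the 4-paralogue probe set stayed between -1.29 and -0.99, while its adjusted p passed or missed the threshold depending on the array. The limma adjusted p of the 4-paralogue probe set was 0.0576 without control 3, 0.0673 without control 4, 0.0849 without control 5, 0.0777 without control 7 and 0.0947 without control 8. It was 0.0503 with no filter and 0.0631 when only the 8 controls entered the fit, with the difference at -1.14 in both. Markers of other tissues were set beside it. The mean centred log2 signal of 6 kept erythroid markers lay between -0.53 and -0.21 in controls 1 to 4 and between -0.41 and 0.82 in controls 5 to 8, that of 3 lung epithelial markers between -1.75 and -0.19 and between -1.42 and 1.01, and that of 3 thymocyte markers between -0.48 and 0.23 and between -0.06 and 0.51. By their medians, macrophage and leukocyte markers (-0.11 and -0.24) and cardiomyocyte markers (0.03 and -0.02) were higher in controls 1 to 4. Mast cell (0.23 and 0.27), mesothelial (-0.09 and -0.03) and brown fat markers (-0.12 and 0.32) were lower there. The part of these lists in the difference was not tested. The ratio of the 3′ to the middle beta-actin control probe set, a sign of RNA quality, was high in controls 1, 2 and 6 (log2 1.19, 1.34 and 0.90), whose Alb signals were 368, 519 and 376. Controls 3 and 4, with ratios of 0.46 and 0.47, had the lowest Alb signals, and control 6 had the lowest of controls 5 to 8. The part of RNA quality in the difference was not tested.

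**Figure D2:**
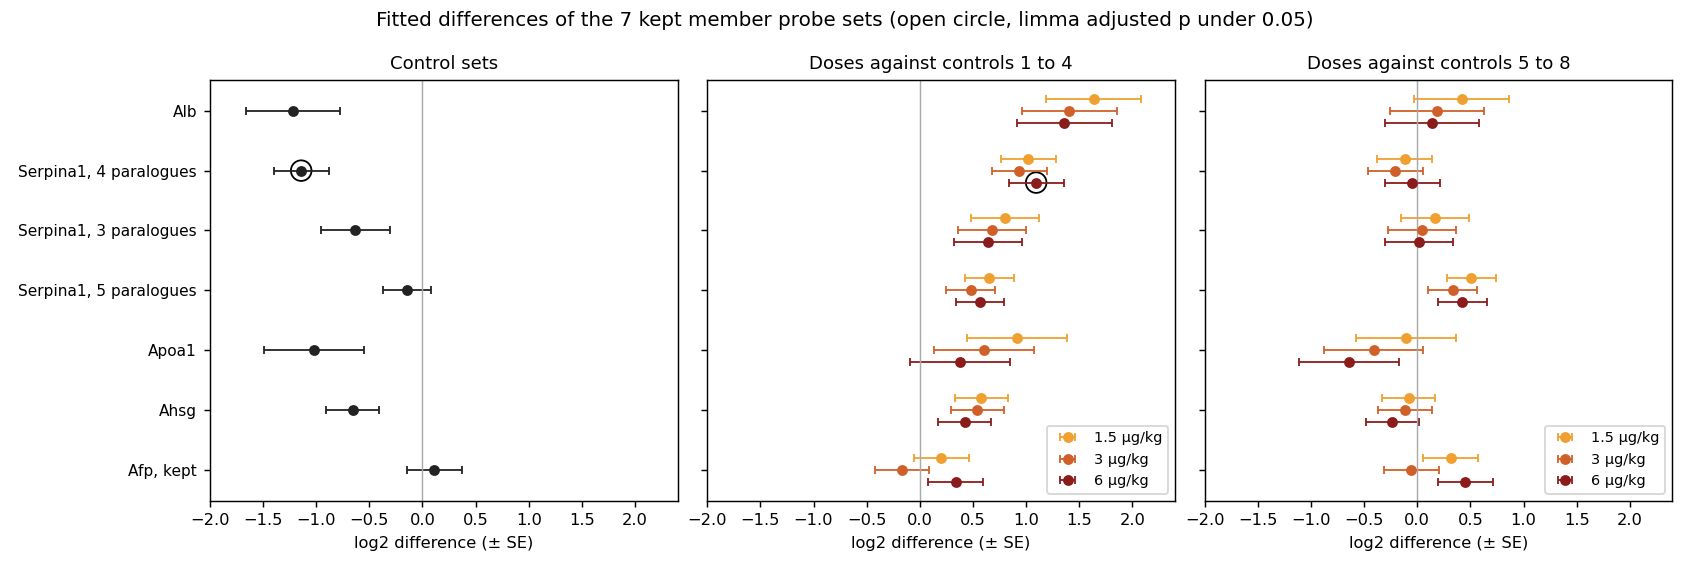
Fitted log2 differences with standard errors for the 7 kept member probe sets between the sets of controls, and for each dose against each set of 4 controls. The doses lie above controls 1 to 4 for nearly all members and lie on both sides of 0 against controls 5 to 8, and open circles mark the 2 values past the threshold.

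The size of a dose difference therefore depended on which controls it was set against. The comparisons share arrays, so they are given side by side and not as independent results. Against controls 1 to 4, 7 of 7 members were higher at 1.5 µg/kg, 6 of 7 at 3 µg/kg and 7 of 7 at 6 µg/kg, with median log2 differences of 0.80, 0.61 and 0.57. Against controls 5 to 8 the medians were 0.17, -0.06 and 0.01, with 4, 3 and 4 of 7 members higher. The medians over all kept probe sets lay between -0.00 and 0.01 in all 6 comparisons, and 49.6% to 51.6% of them were higher. For Alb the differences against controls 1 to 4 were 1.63 ± 0.45 (SE, limma adjusted p = 0.162), 1.41 ± 0.45 (adjusted p = 0.612) and 1.36 ± 0.45 (adjusted p = 0.0975) at 1.5, 3 and 6 µg/kg. Against controls 5 to 8 they were 0.42 ± 0.45, 0.19 ± 0.45 and 0.14 ± 0.45, each smaller than its standard error.

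Against controls 1 to 4 the 4-paralogue Serpina1 probe set rose at 6 µg/kg by 1.09 ± 0.26 on the log2 scale (SE, limma adjusted p = 0.0276), the single call among the members in the 6 comparisons. In that comparison 2.79% of kept probe sets were called and 1.4% were called as higher. At 1.5 and 3 µg/kg against controls 1 to 4, where 0.0494% and 0.0247% of kept probe sets were called, and against controls 5 to 8, where 1.84%, 0.371% and 0.0371% were called, 0 of 7 members passed. The call at 6 µg/kg was lost, with no member called, without control 3 (lowest limma adjusted p of a member 0.0521), control 4 (0.0736), or array 1 (0.0669), array 2 (0.102) or array 3 (0.0814) of that dose. Without array 4 of that dose 2 members were called, and 1 was called at 1.5 µg/kg. How many of all kept probe sets were called in that refit was not counted. No overlap with controls 1 to 4 was seen for 2 of 7 members at 1.5 µg/kg (the 5- and 4-paralogue Serpina1 probe sets; 3.2% of kept probe sets), 2 at 3 µg/kg (Alb and the 4-paralogue Serpina1 probe set; 2.1%) and 0 at 6 µg/kg (4.11%).

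For the members under the filter 20 two-sided exact permutation tests were run. The lowest p was that of Fgb between the sets of controls, 17.9 ± 7.73 (SD, n = 4) in controls 1 to 4 against 52.9 ± 18.3 (SD, n = 4) in controls 5 to 8 (exact permutation p = 0.0286, the smallest that 4 against 4 allows; adjusted over the 20 tests 0.465). Ttr at 6 µg/kg gave 120.4 ± 32.3 (SD, n = 4) against 65.9 ± 38.8 (SD, n = 8) in the controls (exact permutation p = 0.0465, adjusted 0.465). The 4 Ttr signals at that dose were 91.2, 142, 154 and 94.1, and control 5 reached 137. No other of the 20 tests had an adjusted p under 0.857.

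Across the arrays 5 of the 8 member genes rose and fell together. Taking the brightest probe set of each gene, 28 pairs were compared by two-sided permutation tests with 100000 resamples and Benjamini-Hochberg adjustment over the 28, and 10 passed. These were exactly the 10 pairs among Alb, Ahsg, Apoa1, Fgb and the Serpina1 family, and the same 10 passed by Spearman's rho. Alb and the Serpina1 family gave r = 0.924 and rho = 0.911 (n = 20, permutation p = 1e-05 for each, the smallest the resampling can give; adjusted 0.00014 and 9.33e-05). Alb and Ahsg gave r = 0.80 and rho = 0.829 (permutation p = 5e-05 and 1e-05, adjusted 0.00035 and 9.33e-05). Apoa1 and Ahsg gave r = 0.848 and rho = 0.835 (permutation p = 2e-05 and 1e-05, adjusted 0.000187 and 9.33e-05). Alb and Apoa1 gave r = 0.689 and rho = 0.809, and Apoa1 and Fgb r = 0.724 and rho = 0.589 (permutation p = 0.00124 and 0.00017 for the r values, adjusted 0.00579 and 0.000952). Arrays share their hybridisation and scaling, and over 8096 kept probe sets the correlation with Alb had a median of 0.03 and a central 95% range of -0.51 to 0.52, with 0.828% at 0.6 or more.

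**Figure D3:**
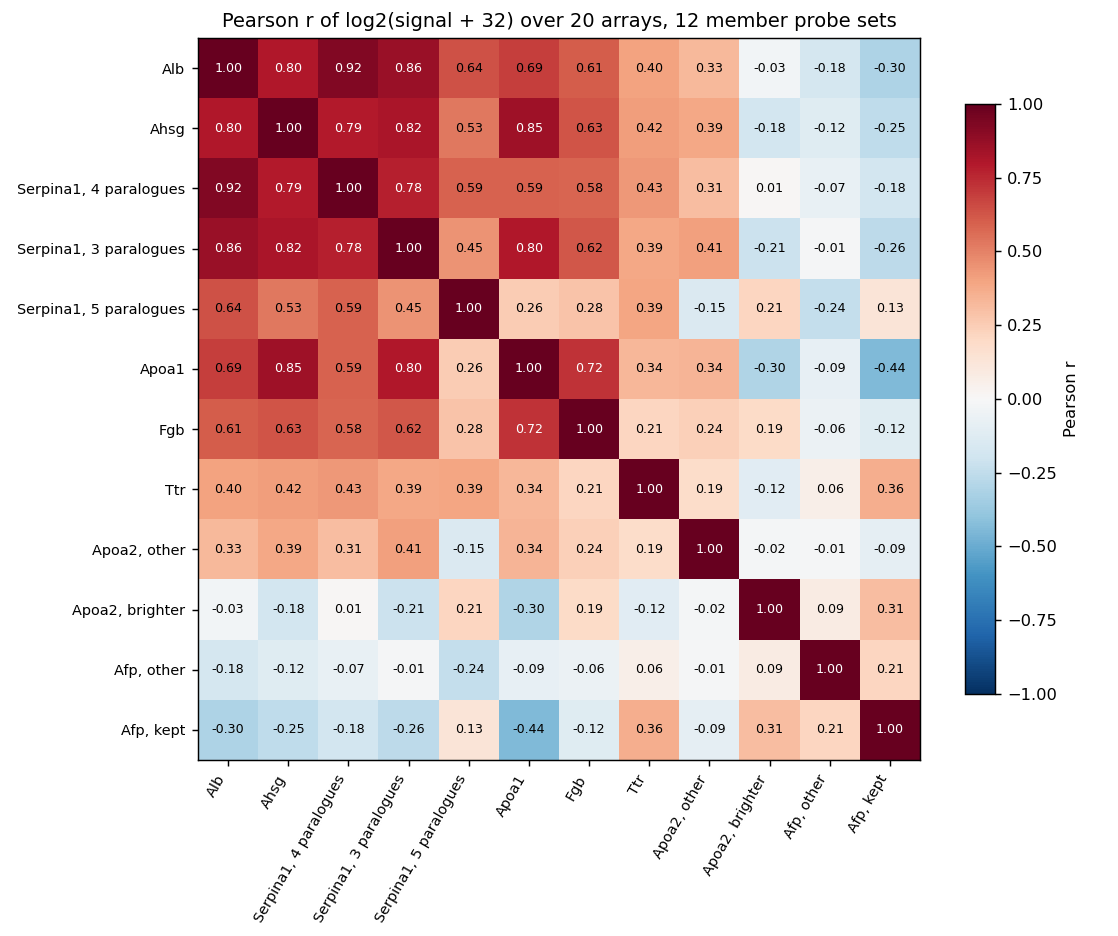
Pearson correlation of log2(signal + 32) over 20 arrays between the 12 member probe sets, with the value in each cell. A block of high values joins Alb, Ahsg, Apoa1, Fgb and the brightest and the 3-paralogue Serpina1 probe sets. The 5-paralogue Serpina1 probe set joins it only in part. It gave 0.64 with Alb, 0.592 with the brightest Serpina1 probe set and 0.529 with Ahsg. With the 3-paralogue probe set, Fgb and Apoa1 it gave 0.446, 0.285 and 0.255. Both Afp probe sets and the brighter Apoa2 probe set lie near or below 0 against the block.

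Leaving out the 2 arrays farthest from the median of one gene of a pair kept these relations, with r = 0.830 for Alb and the Serpina1 family, 0.836 for Alb and Ahsg and 0.737 for Apoa1 and Ahsg. The lowest of the 10 after that step was Ahsg and Fgb, at 0.424 from 0.628. The 10 pairs were also positive in the 8 controls alone, in the 12 TCDD arrays alone, and in deviations from the 5 set means. Alb and the Serpina1 family gave 0.938, 0.881 and 0.929 in these subsets, and Alb and Ahsg 0.690, 0.956 and 0.745. Fgb and the Serpina1 family gave 0.778, 0.449 and 0.429, the last being the lowest of the 10 in deviations. The 10 pairs were chosen over these same arrays, so the subsets describe them and are no separate support. Without array 3 at 1.5 µg/kg 5 of the 28 pairs passed, with r for Alb and Apoa1 at 0.556 and for Alb and Fgb at 0.487, both no longer past the threshold.

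Afp was in none of the pairs that passed, and its 7 correlations lay between -0.44 and 0.36. With Alb, its neighbour on chromosome 5, it gave r = -0.305 and rho = -0.281 (n = 20, permutation p = 0.19 and 0.23, adjusted 0.282 and 0.323), with -0.776 in the 8 controls, -0.377 in the 12 TCDD arrays and -0.607 in deviations from the set means. The other Afp probe set gave -0.178 with Alb. Apoa2 likewise took part in 0 of the pairs that passed, although its other probe set gave r = 0.328 with Alb. Ttr gave positive values with Alb (0.402), Ahsg (0.419) and the Serpina1 family (0.430), and none passed after adjustment. Afp, Apoa2 and Ttr were above the filter in 6, 2 and 3 arrays, so a correlation near 0 says little about their RNA. Of the genes that rose and fell together, Apoa1 and Fgb were above it in 4 and 0 arrays. Their correlations therefore rest on dim signals too.

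**Figure D4:**
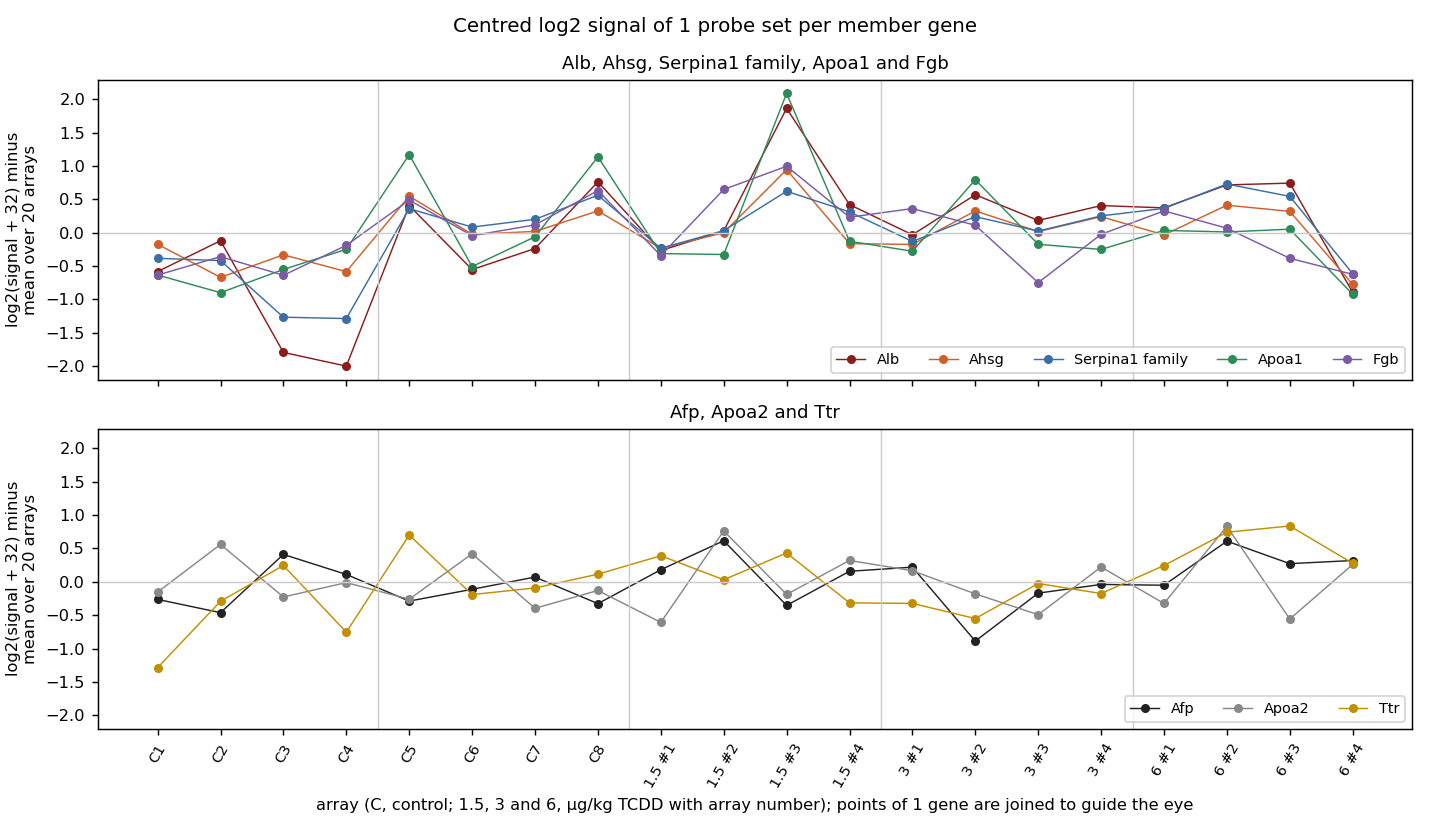
Log2 signal of each member gene minus its mean over 20 arrays, by array, with the genes that vary together in the upper panel and Afp, Apoa2 and Ttr in the lower panel. Array 3 at 1.5 µg/kg is high and controls 1 to 4 and array 4 at 6 µg/kg are low in the upper panel.

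A member score, the mean of the centred log2 signals of Alb, Afp, Apoa1, Ahsg and the Serpina1 family, places each array on 1 scale. It ran from -0.80 to -0.41 in controls 1 to 4, -0.22 to 0.49 in controls 5 to 8, -0.17 to 1.03 for the low dose, -0.08 to 0.21 for the middle dose and -0.58 to 0.50 for the high dose. Controls 1 to 4 thus lay below every other array but array 4 at 6 µg/kg, and array 3 at 1.5 µg/kg lay above all others. That array was the highest of the 20 for 4 of the 7 kept members (57.1%) and for 3.75% of all kept probe sets. Control 4 was the lowest of the 20 for 3 of 7 (42.9%) and for 7.89% of all kept probe sets.

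Marker lists of other tissues were set beside the score. The hepatocyte list, whose summed signal was 673 to 1215 in controls 1 to 4, 1233 to 2129.8 in controls 5 to 8, 1177 to 3825 for the low dose, 1498 to 1907 for the middle dose and 1045 to 2274 for the high dose, shares Alb, Afp, Ahsg, Fgb and Apoa2 with the members. Over the 20 arrays the score correlated at 0.551 with 3 kept thymocyte markers, 0.440 with 6 erythroid, 0.321 with 3 lung epithelial, 0.247 with 8 macrophage and leukocyte, 0.155 with 5 mesothelial, 0.016 with 2 brown fat, -0.132 with 4 mast cell and -0.374 with 6 cardiomyocyte markers. The kept thymocyte markers, Rag1, Dntt and Thy1, correlated singly at 0.399, 0.326 and 0.211. Of thymocyte markers under the filter, Cd3e and Cd3g gave 0.605 and 0.501, and Cd8a and Ptcra gave -0.17 and -0.511. These correlations are descriptions without a test, and the part of these markers in the variation of the members was not tested. With the actin 3′ to middle ratio the score correlated at -0.483. The 4 arrays with a high ratio (controls 1, 2 and 6 and array 4 at 6 µg/kg, log2 0.90 to 1.34 against 0.35 to 0.61 in the others) had scores of -0.41, -0.51, -0.22 and -0.58. Without these 4, a choice made after seeing the data, 7 of the 28 pairs passed, and Alb and the Serpina1 family gave r = 0.942. Between the sets of controls this left controls 3 and 4, with the lowest Alb signals of the 20 arrays (141 and 118), against controls 5, 7 and 8. Alb then joined the 4-paralogue probe set as called (-2.21, limma adjusted p = 0.0154). How many of all kept probe sets were called without these 4 arrays was not counted. With no array left out the Alb difference was -1.22 (limma adjusted p = 0.19).

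Other genes of liver plasma proteins and liver function were taken from a list of 86, of which 71 had a probe set and 28 were kept. Of these 28, 8 (28.6%) had a correlation of 0.6 or more with the member score, against 1.17% of 8090 kept probe sets that are no member. They were Fga (fibrinogen alpha chain), Kng1 (kininogen), Plg (plasminogen), Serpinf2, Itih3 and the single-symbol probe sets of Serpina1b, Serpina1c and Serpina1e. The Serpina1 probe sets may hybridise to several paralogues, members included. The 5 genes most like the score over 20 arrays among all kept probe sets with 1 symbol were Fga (r = 0.878), Serpina1c (0.873), Serpina1e (0.859), Kng1 (0.835) and Serpina1b (0.825). Genes that are not on the list followed closely, with Ephb6 at rank 6 (0.812) and Chga at rank 8 (0.793). Those most like Alb were Fga (0.909), Serpina1e (0.835), Kng1 (0.829), Serpina1c (0.808) and Atp13a3 (0.802), a P-type ATPase that is not on the list.

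Fga, whose product assembles with that of Fgb, gave 139, 116, 81.8 and 23.2 in controls 1 to 4 and 225, 132, 213 and 208 in controls 5 to 8. The low dose gave 125, 155, 470.4 and 151, the middle dose 203, 276, 206 and 193, and the high dose 238, 256, 356 and 128. Control 4 was thus its lowest array and array 3 at 1.5 µg/kg its highest, as for Alb. Kng1, the precursor of bradykinin, also peaked in that array at 543, with 137 ± 50.8 (SD, n = 4) in controls 1 to 4 and 228 ± 93.3 (SD, n = 4) in controls 5 to 8. The list did not move as 1 block. Apoe, which macrophages and other cells also make, had the lowest correlation with the score (r = -0.553) and gave 4761 ± 532 (SD, n = 4) in controls 1 to 4 and 3722 ± 576 (SD, n = 4) in controls 5 to 8. C9, a terminal complement component, followed with r = -0.481 and gave 134 ± 51.3 (SD, n = 4) and 54.8 ± 30.5 (SD, n = 4).

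**Figure D5:**
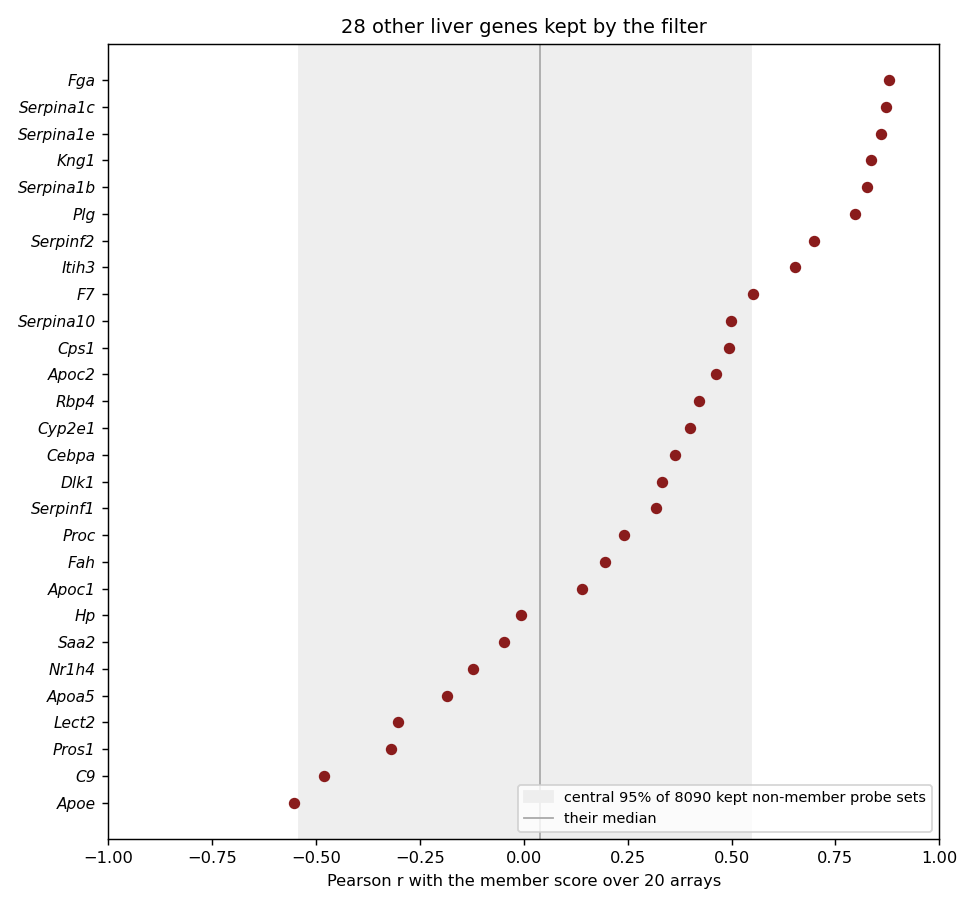
Pearson correlation of each of the 28 other kept liver genes with the member score over 20 arrays, with the central 95% range and the median of all kept probe sets that are no member. 8 genes lie at 0.65 or more, from Itih3 to Fga, and Apoe lies at the low end.

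None of the 28 passed at any dose against the 8 controls, where 20, 23 and 25 of 28 had higher fitted means, with median log2 differences of 0.09, 0.11 and 0.23. Of all kept probe sets 51.9%, 51.2% and 49.7% were higher, with medians of 0.01, 0.00 and -0.00. At an unadjusted limma p under 0.05 stood 3, 1 and 4 of the 28 (10.7%, 3.57% and 14.3%), against 12.6%, 5.72% and 9.15% of all kept probe sets. Between the sets of controls 20 of 28 were lower in controls 1 to 4, with a median of -0.31, against 49.7% lower and a median of 0.00 over all kept probe sets. None passed in limma, and 12 of 28 (42.9%) had an unadjusted p under 0.05 in either direction, against 14.9% of all. Among the 12, Apoe (0.36 ± 0.13, SE), C9 (0.94 ± 0.31) and Pros1 (0.34 ± 0.16) were higher in controls 1 to 4. Serpina1b, Serpina1c and Serpina1e were among those lower. Fga differed there by -0.99 ± 0.35 (SE, limma adjusted p = 0.169). The single call was Serpinf1, pigment epithelium-derived factor, which rose at 6 µg/kg against controls 1 to 4 by 1.06 ± 0.26 (SE, limma adjusted p = 0.0296). That is 1 of 28 (3.57%), close to the 2.79% of all kept probe sets called in that comparison (1.4% as higher). Its correlation with the member score was 0.318. Against all 8 controls its difference was 0.73 ± 0.25 (adjusted p = 0.401).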

How the data were processed

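Total RNA of whole fetal mouse hearts had been hybridised to 20 1-colour Affymetrix MG-U74Av2 arrays. The authors deposited 1 linear intensity (signal) per probe set and array, made with MAS5 per the submitters' processing notes; its version is not given in the sources used here. A trimmed mean of 500.28 to 500.341 in every array (2% trimmed at each end) shows that the deposited intensities had been scaled alike. Scanner files and detection calls were not used here.

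Signals were rescaled to bring every array's trimmed mean to 500, and log2(signal + 32) was analysed. Of 12488 probe sets, 66 AFFX controls were left out. The filter asked for a signal of the array's 40th percentile or more in 4 or more arrays. Fits used limma 3.58.1 in R 4.3.3 (lmFit, contrasts.fit, eBayes with an intensity trend) on all 20 arrays, in 4 groups for doses against all controls, the F test and the trend, and in 5 groups for comparisons with either set of 4 controls. Tests were two-sided and adjusted by Benjamini-Hochberg at 0.05. Exact and resampled permutation tests used scipy 1.17.1, and plots matplotlib 3.10.9. Scripts were tested on simulated data.

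Gene symbols came from the platform annotation, and locations and upstream sequences from RefSeq tables of GRCm38.p6. Upstream sequences were found for 7 member genes; Trf and Ttr were not analysed for sequence here, nor were protein sequences. All probe sets of the member symbols are described. Of the other liver list, the genes named are the 4 highest and 2 lowest by correlation with the member score and any that passed a test; of all kept probe sets with 1 symbol, the 5 most like the score and the 5 most like Alb. Others named (Plg, Serpinf2, Itih3, Pros1, Ephb6, Chga, the single thymocyte markers and the genes under "Other observations") were chosen after their values were seen. The members, the lists and the split of the controls were chosen with earlier results of these data known.

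Alternatives were quantile normalization, no scaling, pseudocounts of 1 and 100, other filters, only the groups compared, no intensity trend, array weights, log2(dose + 1), averaging a gene's probe sets, the replicate number as a block, leaving out each array and, chosen after seeing the data, leaving out the 4 arrays with a high actin ratio. Same-numbered arrays showed no shared deviation, as given in the closing section, which does not exclude a pairing.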

Additional observations from a re-analysis of the deposited data

Results flagged for a closer look

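The 12 member probe sets were each examined in 4 groups, the 8 controls together and the 4 arrays of each dose. In 5 of these 48 sets of values, all 5 at a TCDD dose, a single array lay far from the others by Dixon's criterion. Most of the 48 sets are at a dose, so that all 5 are says little. Chance flags about 1 in 20 such groups where values are normally distributed and independent. These are linear signals of probe sets that partly vary together. Apoa1 had 3 of the 5. Its signal was 353.8 in array 3 at 1.5 µg/kg, where the other three gave 40.4 to 51.1. It was 125.3 in array 2 at 3 µg/kg, against 42.9 to 48.5, and 15.9 in array 4 at 6 µg/kg, against 59.5 to 62.2. The dimmer Apoa2 probe set gave 80.8 in array 3 at 3 µg/kg, against 22.5 to 27.98, all under the filter. The 5-paralogue Serpina1 probe set gave 166 in array 4 at 3 µg/kg, against 117 to 122. No explanation of these values was tested.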

How the results depend on the processing

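No member was called at any dose against the 8 controls under any alternative or with any array left out. Between the sets of controls the count of members called, 1, became 0 with no filter, 0 when only the groups compared entered the fit, and 2 without the 4 arrays of high actin ratio, and ran from 0 to 1 when single arrays were left out. The median there became -1.14 with the filter at the 60th percentile, which kept 3 members. Against controls 1 to 4 the count at 6 µg/kg, 1, became 2 with array weights and 2 without the high actin arrays, and ran from 0 to 2 with single arrays left out. The counts at 1.5 and 3 µg/kg, 0, became 2 and 2 without the high actin arrays, and that at 1.5 µg/kg ran from 0 to 1 with single arrays left out. Without the high actin arrays only controls 3 and 4 remained of controls 1 to 4. For the alternatives the share of all kept probe sets called was not counted. These changes are therefore not results about the members alone. The number of correlated pairs, 10, ran from 5 to 11 with single arrays left out. Some small differences turned their sign, and none of these had passed the test. Apoa1 at 3 µg/kg was -0.11 with array weights and -0.27 without the high actin arrays, Afp between the controls -0.028 and the 5-paralogue Serpina1 probe set 0.06 with array weights, and Apoa1 at 6 µg/kg 0.377 with the replicate block over controls 1 to 4 and the doses. Without a block the Apoa1 value against controls 1 to 4 was 0.377 as well, so that turn comes with the choice of controls. The correlation of Alb and Apoa2 was 0.237 when a gene's probe sets were averaged and 0.063 without the high actin arrays. With single arrays left out, Apoa1 ran from -0.18 to 0.62 at 1.5 µg/kg, from -0.16 to 0.28 at 3 µg/kg and from -0.25 to 0.11 at 6 µg/kg, Ahsg from -0.021 to 0.37 at 1.5 µg/kg and from -0.052 to 0.34 at 6 µg/kg, Afp from -0.26 to 0.11 at 3 µg/kg and from -0.041 to 0.25 between the controls, the 5-paralogue Serpina1 probe set from -0.39 to 0.016 between the controls, and Alb with Apoa2 from -0.133 to 0.035. The cause of the other changes was not tested.

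The labels give controls 1 to 4 and the doses the same replicate numbers. Same-numbered arrays did not deviate together, with correlations of -0.222 to 0.21 in 24 pairs, and 5 of 16 arrays correlated best with their own number. Arrays of different numbers gave -0.243 to 0.328 in 72 pairs. A check over all kept probe sets cannot exclude a pairing that touches few of them. The replicate block over these 16 arrays left 0 members called at each dose (lowest limma adjusted p = 0.0562 at 6 µg/kg). Dim probe sets limit what can be said of Afp, Apoa1, Apoa2, Ttr and Fgb.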

Other observations

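Other genes of the same families lay under the filter and are given as values. Fgg, the third fibrinogen chain, gave a mean ± SD over 4 arrays of 24.9 ± 15.4 in controls 1 to 4, 61.4 ± 33.2 in controls 5 to 8, 49.7 ± 38.6 for the low dose, 72.1 ± 11.8 for the middle dose and 73.7 ± 48.6 for the high dose. Its correlation with the member score over 20 arrays was 0.768, beside 0.878 for Fga and 0.713 for Fgb. Ambp, the precursor of alpha-1-microglobulin, correlated at 0.678. Orm2, an acute phase protein, correlated at -0.501.

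Several genes of the list are also made outside the liver. Hp (haptoglobin) was kept, with 336 ± 135 (SD) over the 8 controls and 384 ± 110.2 (SD) over the 12 TCDD arrays. Dlk1, which marks fetal hepatoblasts and many other fetal cells, averaged 5750.4 ± 890.4 (SD) over the 8 controls and 8194 ± 1596 (SD) over the 4 low-dose arrays, a log2 difference of 0.50 ± 0.14 (SE, limma adjusted p = 0.129). Among transcription factors of hepatocytes, Cebpa was kept and correlated with the member score at 0.363, and Hnf4a, Foxa1, Foxa2 and Foxa3, all under the filter, at -0.164, 0.111, -0.317 and 0.124.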
